A study of Homo sapiens with 6 samples.

Results

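The 10 zinc finger genes described here lie on chromosome 19 around LINC01534, the long noncoding RNA (lncRNA) that was targeted with siRNA in HCT116 cells. They are ZNF566, ZNF260, ZNF529, ZNF382, ZNF461, ZNF567, ZNF850, ZNF790, ZNF345 and ZNF568. They were taken as a list of zinc finger genes of the 19q13.12 cluster around LINC01534 and matched by symbol. All 10 were found among the 26255 symbols of the expression files. Their levels were not used to choose them, although earlier results of these data were known. Only ZNF567 and ZNF566 reached a mean of 1 FPKM (fragments per kilobase of transcript, scaled to the mapped reads of the library), the minimum for the test across genes, and neither differed past the threshold with either siRNA.

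HCT116 is a human colorectal carcinoma cell line, and each group was this line alone. RNA sequencing was carried out on 3 groups of 2 libraries, labelled parent, siLINC01534-1 and siLINC01534-2, to compare silenced cells with parent cells. The siRNAs were 2 duplexes against LINC01534, delivered with a lipid reagent. No transfection is described for the parent libraries, and no library with a negative control siRNA was analysed here, so that transfection and the loss of LINC01534 cannot be told apart. No label says whether the 2 libraries of a group came from separate cultures, so p-values measure the spread between these libraries, which may be technical. Doses and times after transfection are not given in the labels.

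Most genes of this cluster encode proteins with a row of C2H2 zinc fingers, each of which holds a zinc ion and reads a few bases of DNA, behind a KRAB box. The KRAB box recruits the corepressor TRIM28, which brings the histone methyltransferase SETDB1, HP1 proteins and histone deacetylases to the bound site. Such genes arose by local duplication, lie side by side on chromosome 19, and many are expressed at low levels. Some lncRNAs act in cis, that is, on the genes beside them, and a lncRNA that starts at the promoter of a coding gene raises the question for its neighbours.

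On GRCh37 (hg19), the build of the deposited values, LINC01534 is annotated by GENCODE under the name ZNF567-DT, a divergent transcript, on chromosome 19 from 37173538 to 37178370 on the minus strand. ZNF567 starts on the opposite strand at 37178514 and runs to 37218603. Only 143 bases lie between the starts of the pair. The sequence of this shared promoter is shown because it is the place where LINC01534 and its neighbour begin. It is the RefSeq window of ZNF567 on GRCh38.p14, with 250 bases before and 50 bases after the start, at chr19:36687362-36687661 on the plus strand. The capitals mark a match, on the minus strand, to the letters TACANTTCC, the core of an element known from binding sites of ZNF143 and THAP11. The window of ZNF568, at chr19:36916082-36916381 on the plus strand, is shown as one with the same letters from a gene that was listed at 0. The window of ZNF382, at chr19:36605063-36605362 on the plus strand, is shown as one without the letters, also from a gene listed at 0.
ZNF567: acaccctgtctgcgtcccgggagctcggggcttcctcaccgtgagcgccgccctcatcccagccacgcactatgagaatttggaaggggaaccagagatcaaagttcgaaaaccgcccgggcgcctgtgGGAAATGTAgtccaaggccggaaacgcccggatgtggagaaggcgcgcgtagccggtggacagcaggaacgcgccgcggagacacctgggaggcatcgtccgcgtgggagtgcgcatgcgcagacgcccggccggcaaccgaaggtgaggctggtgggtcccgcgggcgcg
ZNF568: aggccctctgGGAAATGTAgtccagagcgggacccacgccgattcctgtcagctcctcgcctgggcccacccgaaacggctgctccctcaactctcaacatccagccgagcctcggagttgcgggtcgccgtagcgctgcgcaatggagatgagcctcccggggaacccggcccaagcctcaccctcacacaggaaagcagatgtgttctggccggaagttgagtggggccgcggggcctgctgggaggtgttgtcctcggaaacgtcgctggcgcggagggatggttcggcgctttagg
ZNF382: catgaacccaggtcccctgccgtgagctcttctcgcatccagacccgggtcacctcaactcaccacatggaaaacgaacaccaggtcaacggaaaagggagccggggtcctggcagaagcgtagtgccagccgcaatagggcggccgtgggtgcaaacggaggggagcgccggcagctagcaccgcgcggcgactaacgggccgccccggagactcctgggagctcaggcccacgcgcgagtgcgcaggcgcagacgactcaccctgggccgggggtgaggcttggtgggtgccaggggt

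All 10 genes matched the RefSeq promoter table, with 17 windows of 300 bases. The window of ZNF567 shown above held 35 CpG dinucleotides, and its observed/expected CpG ratio of 1.04 was the highest of the 17. The windows of the 10 genes ranged from 0.48 to 1.04 with a median of 0.78. The 31 windows of the other zinc finger genes of 19q13.12 that matched had a median of 0.81, and the 34779 distinct windows of all genes outside the 10 had a median of 0.58. ZNF567 has a further RefSeq start upstream, whose window overlaps that of ZNF461 and had a ratio of 0.67. The deposited files give 1 value for each gene, so the starts of ZNF567 cannot be told apart in its level.

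The letters TACANTTCC, searched on both strands, were chosen after the promoter sequences had been seen. They were found in 7 of the 17 windows (41.2%), which belong to 6 of the 10 genes, at 6 distinct sites. These genes were ZNF567, ZNF850, ZNF260, ZNF790, ZNF345 and ZNF568. One site lay in the windows of both ZNF345 and ZNF790, which start beside each other on opposite strands. The letters were in 7 of 31 windows (22.6%) of the other 19q13.12 zinc finger genes, some of which also overlap, and in 541 of 34779 windows (1.56%) of all genes outside the 10. The windows with the letters came from ZNF567, the highest of the 10 genes, as well as from ZNF790, ZNF345 and ZNF568, which were listed at 0.

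**Figure D1:**
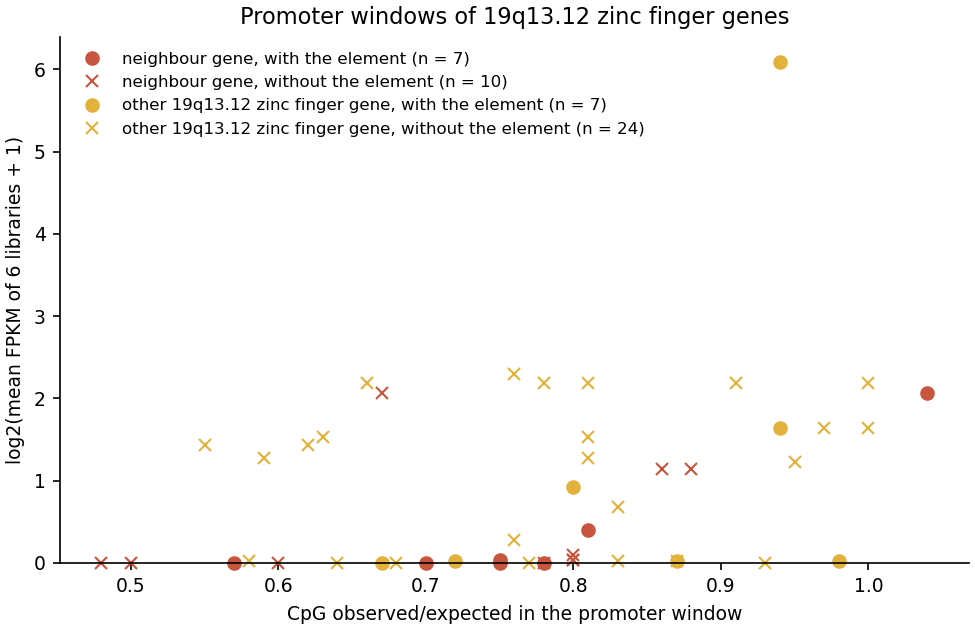
Each mark is 1 RefSeq promoter window of 300 bases of a 19q13.12 zinc finger gene. The horizontal axis gives the CpG observed/expected ratio, the vertical axis log2(mean FPKM of 6 libraries + 1), red marks are the 10 LINC01534 neighbours, yellow marks other zinc finger genes of 19q13.12, and circles mark windows with the letters TACANTTCC. Circles lie both at 0 and at the highest levels, and the single high point is ZNF146 with a mean of 67.2 FPKM.

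The other neighbours lie on both sides of LINC01534 on GRCh37. Distances are from the start of LINC01534 to the start of each gene, negative towards the lower coordinates. ZNF461 lies from 37127520 to 37157755 on the minus strand, at -20.6 kb. ZNF382 lies from 37095719 to 37125016 on the plus strand, at -82.7 kb, and ZNF529 from 37025676 to 37096178 on the minus strand, at -82.2 kb. ZNF260 lies from 37001589 to 37019173 and ZNF566 from 36936021 to 36980804, both on the minus strand, at -159.2 and -197.6 kb. On the other side, ZNF850 lies from 37205285 to 37263727 on the minus strand, at 85.4 kb. ZNF345, from 37341263 to 37403931 on the plus strand, and ZNF790, from 37308330 to 37341689 on the minus strand, start at 162.9 and 163.3 kb. ZNF568 lies from 37407218 to 37495939 on the plus strand, at 228.8 kb.

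Some of these genes overlap on opposite strands, ZNF529 with ZNF382 by 460 bases, ZNF567 with ZNF850 by 13319 bases and ZNF790 with ZNF345 by 427 bases. The library kit kept the strand, but the sources used here do not say whether strand was used in the quantification. The levels of these 6 genes are therefore uncertain where they overlap. All 10 genes are annotated as protein coding. In the longest reading frames of their GENCODE transcripts, the number of C2H2 fingers ranged from 7 in ZNF566, of 419 residues, to 29 in ZNF850, of 1090 residues. ZNF567 had 14 fingers in 647 residues. A short stretch typical of the KRAB box (glutamine, glutamate, glutamate, tryptophan) was found in 8 of the 10, and not in ZNF260 or ZNF345.

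The libraries were checked first. The depth, estimated from the steps between low FPKM values, was 8680000 to 10400000 reads per library, and 16513 to 16903 genes were above 0. At this depth 1 FPKM corresponded to about 10.1 reads per kilobase in the first parent library. Among epithelial markers, EPCAM was at 199 to 204 FPKM, KRT8 at 1343 to 1730 FPKM, KRT18 at 852 to 998 FPKM, CDH1 at 23.5 to 36.9 FPKM and CDX2 at 6.89 to 9.89 FPKM. The intestinal marker VIL1 was at 0 in 5 libraries and CEACAM5 reached at most 0.474 FPKM. Of 6 markers of other cells, CD3E was at 0 in all libraries, and PTPRC, COL1A2, PECAM1 and VWF were at most at 0.0797 FPKM. COL1A1 was at 3.02 to 5.79 FPKM, higher by 0.49 on the log2 scale in the mean of both siRNAs. Its rise passed the limma threshold with siLINC01534-1 (0.68) and did not with siLINC01534-2 (0.31). Of 5 epithelial markers tested, limma called 2 lower with siLINC01534-1 and 1 higher with siLINC01534-2. The part of these marker changes in the results was not tested.

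LINC01534 itself was close to the limit of detection. The parent libraries were at 0.285 and 0.571 FPKM, the siLINC01534-1 libraries at 0 and 0.283 FPKM, and the siLINC01534-2 libraries at 0.660 and 0.551 FPKM. Both libraries with siLINC01534-1 were at or below the lower parent library, while those with siLINC01534-2 lay within or above the parent values. The fewest whole reads that give these values were 1 and 2 for parent, 0 and 1 for siLINC01534-1 and 2 and 2 for siLINC01534-2. That is 8 reads over the 6 libraries, and a common multiple of them would give the same values. The ratio to parent was 0.353 with siLINC01534-1 (exact 95% counting interval 0.00673 to 4.4) and 1.4 with siLINC01534-2 (0.238 to 9.59). Intervals and limits from read numbers cover counting error only, and the intervals take these fewest reads as the true numbers. A fall of LINC01534 was not detectable at this depth with either siRNA, and the level in the libraries labelled siLINC01534-2 was not below that in parent. Directions below are therefore those of the libraries as labelled.

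**Figure D2:**
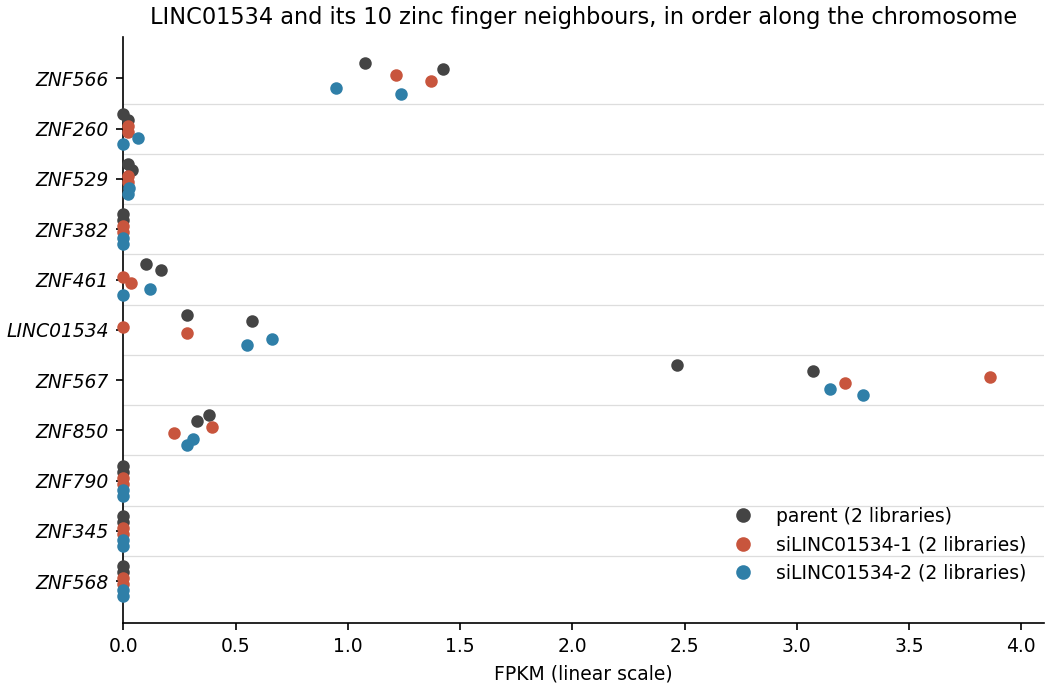
FPKM (horizontal, linear scale) of LINC01534 and the 10 zinc finger genes in each of the 6 libraries, ordered along the chromosome. Each point is 1 library, grey for parent, red for siLINC01534-1 and blue for siLINC01534-2. ZNF567 lies highest, at 2.47 to 3.86 FPKM, with all 4 siLINC01534 libraries above both parent libraries, ZNF566 lies at 0.947 to 1.43 FPKM with overlapping groups, and 7 of the 10 genes lie below 0.1 FPKM on average.

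The order of the levels was ZNF567, ZNF566, ZNF850, ZNF461, ZNF529, ZNF260, and then ZNF382, ZNF790, ZNF345 and ZNF568, all 4 of which were listed at 0 in every library. The means over the 6 libraries were 3.18, 1.21, 0.320, 0.0701, 0.0242 and 0.0212 FPKM for the first 6. The ranges over the libraries of ZNF567, ZNF566 and ZNF850 did not overlap each other, while those of ZNF461, ZNF529 and ZNF260 did. FPKM is scaled by transcript length, so levels can be set beside each other, except as far as reads of overlapping genes on opposite strands, such as ZNF567 and ZNF850, were not kept apart. In bulk RNA, less RNA per cell and fewer cells with the RNA cannot be told apart.

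This stretch of the chromosome was quiet in HCT116 cells. Of the 10 genes, 2 (20%) had a mean of at least 1 FPKM, 1 lay between 0.1 and 1 FPKM, 3 were above 0 but under 0.1 FPKM, and 4 were at 0 in all libraries. The corresponding share at 1 FPKM or more was 8 of 20 (40%) among the other zinc finger genes of 19q13.12, 333 of 519 (64.2%) among all other genes named ZNF and a number, and 11177 of 19004 (58.8%) among protein-coding genes. The share at 0 in all libraries was 40% of the 10 genes, 20% of the other 19q13.12 zinc finger genes, 12.5% of the other ZNF genes and 16.1% of protein-coding genes. These shares are a description without a test, because neighbouring duplicated genes share sequence and are not independent.

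**Figure D3:**
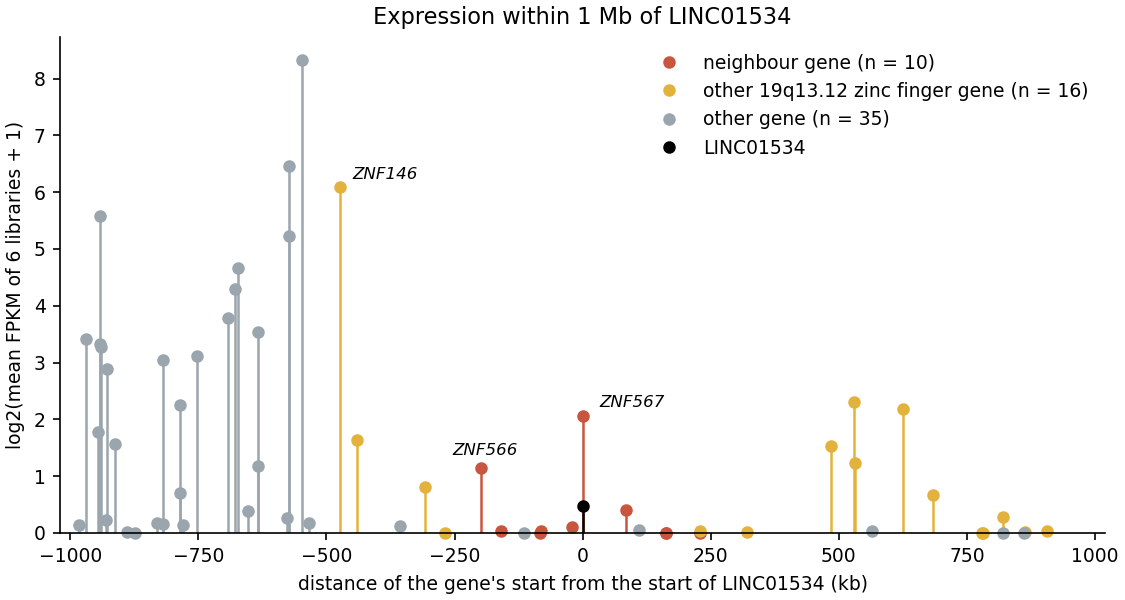
Mean level of the 61 listed genes within 1 Mb of LINC01534, as log2(mean FPKM of 6 libraries + 1), against the distance of the gene's start from that of LINC01534 in kb. Red stems are the 10 neighbours, yellow stems other zinc finger genes of 19q13.12, grey stems other genes and black is LINC01534. Between the start of ZNF146 at -472.9 kb and the zinc finger genes beyond 485 kb, ZNF567 is one of few genes that rise above the baseline.

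ZNF567, the gene that starts beside LINC01534, was at 2.47 and 3.07 FPKM in parent, 3.86 and 3.21 FPKM with siLINC01534-1, and 3.15 and 3.29 FPKM with siLINC01534-2. All 4 siLINC01534 libraries lay above both parent libraries, although the higher parent library was close to the lowest siLINC01534 library. The group means were 2.77 ± 0.430 FPKM in parent, 3.54 ± 0.457 FPKM with siLINC01534-1 and 3.22 ± 0.103 FPKM with siLINC01534-2 (SD, n = 2 each). The mean of the 4 siLINC01534 libraries was 1.22 times the parent mean, with a two-sided exact permutation p of 0.133. The one-sided exact permutation p of 0.0667 is the smallest that this design allows. A gap of this kind, with all 4 siLINC01534 libraries above both parent libraries, was found in 2323 of 12203 tested genes (19%).

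In limma on log2(FPKM + 1), the change of ZNF567 did not pass the threshold of an adjusted p of 0.05. With siLINC01534-1 its log2 fold change was 0.27 ± 0.119 (SE), with a 95% interval from -0.03 to 0.57 and a limma adjusted p of 0.12. With siLINC01534-2 it was 0.17 ± 0.119 (SE), with an interval from -0.13 to 0.47 and a limma adjusted p of 0.357. The mean of both siRNAs gave 0.22 ± 0.103 (SE), with an interval from -0.04 to 0.48 and a limma adjusted p of 0.155. As a fold on this scale, that interval runs from 0.973 to 1.39. The siRNAs differed from each other by 0.10 (interval -0.20 to 0.40, limma adjusted p = 0.53). Of all tested genes, 62.7% had a smaller absolute change than ZNF567 in the mean of both siRNAs. With 0.1 added instead of 1, which shrinks changes at low levels less, its log2 fold change was 0.281 (limma adjusted p = 0.146).

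ZNF566, a KRAB zinc finger gene at the lower end of the stretch, was at 1.08 and 1.43 FPKM in parent, 1.21 and 1.37 FPKM with siLINC01534-1, and 0.947 and 1.24 FPKM with siLINC01534-2. The groups overlapped, since the highest library was a parent library and the lowest but one was the other. The group means were 1.25 ± 0.246, 1.29 ± 0.110 and 1.09 ± 0.204 FPKM (SD, n = 2 each). The log2 fold change was 0.03 with siLINC01534-1 (interval -0.33 to 0.39, limma adjusted p = 0.884) and -0.11 with siLINC01534-2 (interval -0.46 to 0.25, limma adjusted p = 0.633). In the mean of both it was -0.04 (interval -0.35 to 0.27, limma adjusted p = 0.834). Only 13% of the tested genes had a smaller absolute change in the mean of both. The added 1 shrinks the change of a gene near 1 FPKM more than that of a highly expressed one. The intervals and this share are therefore those of this scale. With 0.1 added instead of 1, the log2 fold change of ZNF566 was 0.053, -0.181 and -0.064 in the same order.

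The number of neighbours called was therefore 0 of the 2 tested in every limma comparison, and also 0 at an unadjusted p under 0.05. Over all 12203 tested genes, limma called 37.2% in the mean of both siRNAs against parent, 46.3% with siLINC01534-1 against parent, 22.8% with siLINC01534-2 against parent and 41.8% between the siRNAs. The comparisons against parent share the 2 parent libraries. With 2 genes tested, a count of 0 says little about the neighbours as a group, and the other 8 genes were below the minimum level for the test.

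**Figure D4:**
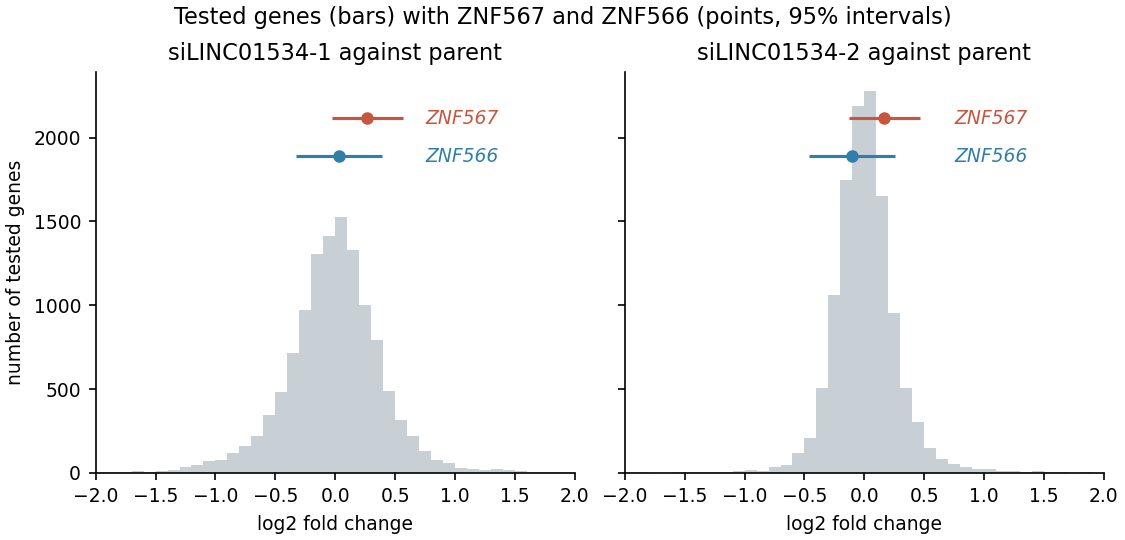
Number of tested genes (vertical) by log2 fold change (horizontal, bins of 0.1) with siLINC01534-1 and siLINC01534-2 against parent. Points are ZNF567 (red) and ZNF566 (blue) with their 95% intervals, drawn at an arbitrary height, and 123 and 112 genes beyond -2 or 2 are not drawn. Both genes lie in the bulk of the genes, and all 4 intervals cross 0.

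ZNF850 lay between the tested genes and the near-silent ones. It was at 0.381 and 0.330 FPKM in parent, 0.393 and 0.225 FPKM with siLINC01534-1, and 0.309 and 0.283 FPKM with siLINC01534-2. The siLINC01534-1 libraries were the highest and the lowest of all, and those with siLINC01534-2 lay below both parent libraries. The mean of the 4 siLINC01534 libraries was 0.85 times the parent mean (two-sided exact permutation p = 0.4). When the minimum mean was lowered to 0.3 FPKM, ZNF850 entered the limma test. Its log2 fold change in the mean of both was -0.06 (interval -0.32 to 0.20, limma adjusted p = 0.704). That is on the log2(FPKM + 1) scale, which understates the change of a gene at this level. The interval therefore does not bound the ratio of the FPKM values. The last part of ZNF850 overlaps ZNF567 on the other strand over 13319 bases.

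ZNF461, known as the gonadotropin-inducible ovary transcription repressor, was at 0.101 and 0.169 FPKM in parent. It was at 0 and 0.0335 FPKM with siLINC01534-1, and at 0.117 and 0 FPKM with siLINC01534-2. The siLINC01534-1 libraries lay below both parent libraries, while the siLINC01534-2 libraries overlapped them. By the same estimate, the parent libraries held 3 and 5 reads, the siLINC01534-1 libraries 0 and 1, and the siLINC01534-2 libraries 3 and 0. The ratio to parent was 0.132 with siLINC01534-1, with an exact 95% counting interval from 0.00298 to 0.988 that is not adjusted for the number of genes. With siLINC01534-2 it was 0.395 (0.0675 to 1.65). In limma without a minimum level, the log2 fold change of ZNF461 on the log2(FPKM + 1) scale was -0.16 with siLINC01534-1 (limma adjusted p = 0.161) and -0.10 with siLINC01534-2 (limma adjusted p = 0.424). That scale understates the change of a gene at this level.

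Reads of the next 2 genes are again the fewest that fit. ZNF529 gave 1 and 2 reads in parent and 1 read in each of the 4 siLINC01534 libraries, at 0.0193 to 0.0401 FPKM. ZNF260, whose mouse counterpart has been studied as a transcription factor of the heart, gave 0 and 1 reads in the parent libraries, 1 in each siLINC01534-1 library, and 3 and 0 in the siLINC01534-2 libraries, at 0 to 0.0669 FPKM. Their ratios to parent had counting intervals that spanned 1 with each siRNA, from 0.059 to 6.17 and 0.0587 to 6.13 for ZNF529, and from 0.11 to 125 and 0.254 to 166 for ZNF260. A change in either gene was not detectable at this depth.

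ZNF382, ZNF790, ZNF345 and ZNF568 were listed at 0 in all 6 libraries, with both siRNAs as in parent. Mouse Zfp568, the counterpart of ZNF568, is known to repress a placental transcript of Igf2. A limit of 3 reads over the coding length corresponds, from the deepest to the shallowest library, to 0.174 to 0.209 FPKM for ZNF382, 0.151 to 0.181 FPKM for ZNF790, 0.197 to 0.236 FPKM for ZNF345 and 0.149 to 0.179 FPKM for ZNF568. These limits count the coding length alone, while the deposited values can be scaled by longer transcripts. With the 3' untranslated part, ZNF382 spans 8.22 kb, against 1.65 kb of coding length. For ZNF461, the 3 reads of the first parent library were 0.101 FPKM, against 0.17 to 0.204 FPKM by coding length. If an entry of 0 is a count of 0, these limits are therefore generous, and the level allowed in a library can be lower.

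The other genes near LINC01534 were counted in windows around its start. Within 100 kb, 5 genes were listed and ZNF567 was the only gene tested. Within 500 kb, 20 were listed, 5 tested and 1 called in the mean of both siRNAs in limma. The tested genes were ZNF566, ZNF567, ZNF146, ZNF565 and ZNF585A. The gene called was ZNF146, a zinc finger gene without a KRAB box at -472.9 kb. It was at 64.6 and 60.6 FPKM in parent, 70.4 and 71.6 FPKM with siLINC01534-1, and 68.1 and 68.0 FPKM with siLINC01534-2. The groups of ZNF146 did not overlap, and all 4 siLINC01534 libraries lay above both parent libraries, as in 19% of all tested genes. Its log2 fold change was 0.18 with siLINC01534-1 (limma adjusted p = 0.0183), 0.12 with siLINC01534-2 (limma adjusted p = 0.0994) and 0.15 in the mean of both (limma adjusted p = 0.0263).

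Within 1 Mb, 26 of 61 listed genes were tested and 9 were called in the mean of both siRNAs (34.6%, against 37.2% of all genes), 5 higher and 4 lower. With siLINC01534-1 alone 9 were called (34.6%, against 46.3%), and with siLINC01534-2 alone 6 (23.1%, against 22.8%). Within 2 Mb, 16 of 56 tested genes were called in the mean of both (28.6%). The genes called within 1 Mb all lay on the side of ZNF566, at -472.9 kb or farther, beyond the 10 neighbours. Nearer than that only ZNF565, ZNF566 and ZNF567 were tested. On the other side, ZNF567, ZNF585A, ZNF585B, ZNF383 and HKR1 were the genes tested, at means of 1.34 to 3.93 FPKM. Their 95% intervals reached 0.298 to 0.718 to each side of the estimate, against 0.104 for ZNF146 at 67.2 FPKM. Place and level can therefore not be told apart in where the calls lie. The gene within 1 Mb farthest from 0 in the mean of both, named after its values were seen, was ALKBH6 at -673.2 kb. It was at 16.7 and 15.6 FPKM in parent, 38.5 and 39.8 FPKM with siLINC01534-1, and 19.4 and 16.7 FPKM with siLINC01534-2. The rise of ALKBH6 passed the threshold with siLINC01534-1 (log2 fold change 1.23, limma adjusted p = 0.000241) and did not with siLINC01534-2 (0.15, limma adjusted p = 0.224).

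**Figure D5:**
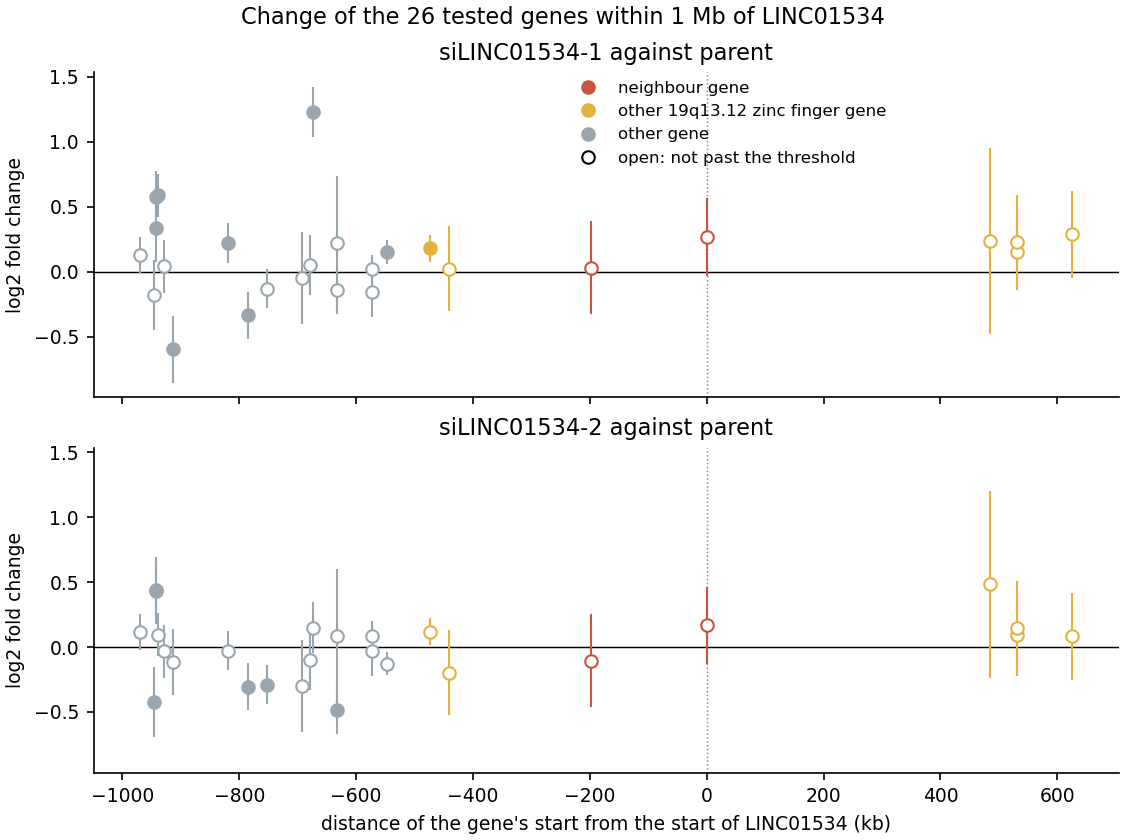
Log2 fold change against parent (vertical) of the 26 tested genes within 1 Mb, against the distance of the gene's start from that of LINC01534 in kb (horizontal), with siLINC01534-1 above and siLINC01534-2 below. Bars are 95% intervals from limma, filled circles passed an adjusted p of 0.05, red marks ZNF567 and ZNF566, yellow other zinc finger genes of 19q13.12 and grey other genes. The filled circles all lie at -472.9 kb or farther, and the intervals of ZNF567 and ZNF566 cross 0 with both siRNAs. The genes tested nearer than this or on the other side had means of at most 3.93 FPKM.

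Of the other zinc finger genes of the cluster, few were called. Of 20 listed, 8 were tested, and ZNF146 was the 1 called (12.5%, against 37.2% of all genes). The median log2 fold change of the 8 was 0.14 in the mean of both siRNAs. ZNF146 had a mean of 67.2 FPKM, and the others tested lay at 1.34 to 3.93 FPKM, where the added 1 shrinks changes. Among all other genes named ZNF and a number, 333 were tested and 61 were called in limma (18.3%, against 37.2% of all genes), 45 higher and 16 lower, with a median of 0.07. Over all tested genes, 2083 were called higher and 2458 lower. The median over all tested genes was -0.01 and that of ZNF567 and ZNF566 was 0.09. These are counts and medians of the same libraries without a test of the lists. The part of expression level in the shares called was not tested.

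Cofactors of KRAB repression and of heterochromatin were taken as a further list, with earlier results of these data known. Their means over the 6 libraries were 7.03 to 305 FPKM, while the test began at 1 FPKM. The share called below is therefore a description, and the part of level in it was not tested. Of 19 tested, 13 were called in the mean of both siRNAs in limma (68.4%, against 37.2% of all genes), 3 higher and 10 lower, with a median of -0.18. With siLINC01534-1, 13 were called, 3 higher and 10 lower, and with siLINC01534-2, 12 were called, 3 higher and 9 lower. TRIM28, the corepressor bound by the KRAB box, was at 369 and 371 FPKM in parent, 231 and 231 FPKM with siLINC01534-1, and 318 and 310 FPKM with siLINC01534-2. It fell by 0.46 on the log2 scale in the mean of both (limma adjusted p = 0.000359), by 0.68 with siLINC01534-1 (limma adjusted p = 0.0001) and by 0.24 with siLINC01534-2 (limma adjusted p = 0.00692).

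The groups of TRIM28 did not overlap, but the share of all tested genes with such a gap downwards is not given here. Of the 10 cofactors called lower, the 3 with the largest decreases in the mean of both were UHRF1, TRIM28 and DNMT1. UHRF1, which recognises hemimethylated DNA, fell by 0.55 (limma adjusted p = 0.000761), and the DNA methyltransferase DNMT1 fell by 0.37 (limma adjusted p = 0.000913). The increases were in MORC3, an ATPase of nuclear bodies, by 0.29 (limma adjusted p = 0.00826), in SETDB1, the histone methyltransferase recruited by TRIM28, by 0.23 (limma adjusted p = 0.0107), and in SMARCAD1, a chromatin remodeller, by 0.23 (limma adjusted p = 0.02). SMARCAD1 passed the threshold with siLINC01534-1 (log2 fold change 0.35, limma adjusted p = 0.00653) and did not with siLINC01534-2 (0.12, limma adjusted p = 0.215), while MORC3 and SETDB1 passed with each siRNA. Whether the changes in these cofactors bear on the levels of the 10 genes was not tested.

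The genes whose pattern over the 6 libraries was most like that of ZNF567 were ATP6AP1, LENG8-AS1 and CCNY, by Pearson's r of log2(FPKM + 1). The r values were 0.999, 0.984 and 0.98, as a description over 6 libraries that form 3 groups. ATP6AP1 was at 49.0 and 52.8 FPKM in parent, 56.9 and 53.7 FPKM with siLINC01534-1, and 53.3 and 54.0 FPKM with siLINC01534-2. As in ZNF567, the first parent library was the lowest and the first siLINC01534-1 library the highest. ATP6AP1 was picked by its r from the 12203 tested genes over these same 6 libraries, so this likeness follows from the choice.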

How the data were processed

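mRNA of HCT116 cells was sequenced in 6 libraries, 2 per group, and grouped by the labels. The study's methods name triplicate cultures and another RNA kit than the labels. The authors mapped single-end reads to hg19 and deposited FPKM per gene symbol, with TopHat2 2.0.13, Bowtie2 2.2.3, SAMtools 0.1.19 and Cufflinks 2.2.1 named in the submitters' processing notes. FPKM are not counts and carry no depth of their own.

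From these, log2(FPKM + 1) was computed, and the 12203 genes with a mean of at least 1 FPKM were tested with limma 3.58.1 in R 4.3.3 (eBayes with a trend, 1 mean per group, Benjamini-Hochberg adjustment over all tested genes, two-sided, threshold 0.05), after the steps were tested on simulated data. FPKM steps between low values gave the fewest whole reads that fit them, with a tolerance of 0.06 reads for a whole number. The depth came from 161 genes with 200 bases taken off the transcript length. Symbols were placed on GRCh37 with GENCODE v44 lifted to that build (90.6%). Promoters came from RefSeq on GRCh38.p14. The other steps ran in Python 3.11.15 with scipy 1.17.1, numpy 2.4.6 and pandas 2.3.3.

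The members, lists and tests were chosen with earlier results of these data known, although the levels of the members were not a criterion. All 10 members are given. From each list and from the genes within 500 kb, up to 3 increases and 3 decreases past the threshold in the mean of both siRNAs were named, and for ZNF567 the 3 genes with the highest correlation. The alternatives were other pseudocounts, minimum levels, scaling, variance prior, samples in the fit, a replicate block and leaving out each library. The replicate numbers come from the labels alone.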

Additional observations from a re-analysis of the deposited data

How the results depend on the processing

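The count of neighbours called stayed at 0 under all alternatives, and 104 of 110 values of ZNF567 and ZNF566 kept their direction and side of the threshold. Leaving out 1 library at a time gave 2356 to 3811 genes called in limma in the mean of both siRNAs, 3986 to 5279 with siLINC01534-1, 950 to 2064 with siLINC01534-2 and 3290 to 4565 between the siRNAs. The counts moved by over 1.5 times without parent replicate 1 (2507 for the mean of both, 950 for siLINC01534-2), parent replicate 2 (2356 and 1034), siLINC01534-2 replicate 1 (1272) or 2 (951) for siLINC01534-2, and siLINC01534-1 replicate 2 (3290) between the siRNAs. The cause was not tested beyond the smaller number of libraries.

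The direction of ZNF566 turned without single libraries, within ranges of -0.082 to 0.141 with siLINC01534-1, -0.218 to 0.006 with siLINC01534-2 and -0.15 to 0.074 in the mean of both. With siLINC01534-1 it was -0.082 without parent replicate 1 and -0.019 without siLINC01534-1 replicate 2. With siLINC01534-2 it was 0.006 without parent replicate 2, and in the mean of both it was 0.074 without that library and 0.012 without siLINC01534-2 replicate 1. The difference of ZNF567 between the siRNAs ranged up to 0.204 and was -0.002 without siLINC01534-1 replicate 1. Its change in the mean of both ranged from 0.101 to 0.334 over the alternatives, with limma adjusted p from 0.118 to 0.56. With siLINC01534-1 it ranged from 0.152 to 0.385 and with siLINC01534-2 from 0.051 to 0.284, the lowest values without parent replicate 1 and the highest without parent replicate 2.

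The deviations of libraries with the same replicate number correlated little across genes (r = 0.11, 0.03 and -0.05). With 2 libraries per group, this cannot exclude that they shared a culture or a day. With the replicate number as a block, limma called 3892, 5114, 1993 and 4438 genes in the same order of comparisons, and the adjusted p of ZNF567 was 0.207 in the mean of both. The fit with only the groups compared was not applicable to the mean of both. The minimum of 1 FPKM kept 8 of the 10 genes out of the test, and 4 of these were at 0 in every library.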
